A study of Mus musculus with 10 samples.

Results

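Histone transcripts were measured by 3′-end RNA-seq in activated muscle stem cells (MuSCs) of control and Trpm7 cKO mice, in 5 libraries per genotype. Members were all genes whose symbol belongs to the H1.0, H2A, H2B, H3 and H4 histone families by a fixed pattern of symbols and that had at least 1 count, which gave 44 genes of the 21914 with a count. Of these, 36 were replication-dependent genes of the histone clusters, 6 were replacement variants, and the last 2 were an antisense RNA (H3f3aos, 2 counts) and a processed pseudogene (H3f3c, 1 count) of the H3.3 genes, which are not described further. All mice were adults carrying Pax7 CreERT2/+ and Rosa26 YFP and received tamoxifen, so that recombination was driven from Pax7 in MuSCs. Control mice were Trpm7+/+ and Trpm7 cKO mice were Trpm7 flox/flox, and YFP-positive cells were sorted 3 days after cardiotoxin (CTX) injury of muscle. TRPM7 is a channel of the plasma membrane that conducts magnesium and carries a kinase domain.

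Nucleosomes hold DNA on cores of H2A, H2B, H3 and H4, with linker histone H1 outside the core. Replication-dependent histones are made in S phase from clustered genes, and their mRNAs normally end in a conserved stem-loop in place of a poly(A) tail, and are degraded when replication stops. Replacement variants such as H3.3, H2A.Z and H1.0 come from solitary genes with ordinary poly(A) tails, are made throughout the cell cycle, and are the histones that a non-dividing cell can still supply. CEL-Seq2 primes on poly(A), so a histone mRNA that ends at its stem-loop is normally missed, and the counts of a clustered gene need not follow its whole mRNA level.

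The 8 members with enough counts to be tested gave 1 fall and 1 rise without overlap between the genotypes, and smaller differences. Of all tested genes, 34.5% did not overlap, 17.9% lower and 16.6% higher, and 48.7% were called at an adjusted p below 0.05. H4c9, a replication-dependent H4 gene, was lower in Trpm7 cKO libraries, at 12.2 ± 3.10 normalized CPM (SD, n = 5) against 35.6 ± 7.11 (SD, n = 5) in control, CPM being counts scaled to a fixed library total. H3f3a, 1 of the genes of the H3.3 variant, was higher, at 114 ± 28.6 CPM (SD, n = 5) against 67.1 ± 6.01 (SD, n = 5). H2bc4, a replication-dependent H2B gene, also rose, but with groups that overlapped. The other 5 tested variants did not pass the threshold. With equal scaling of all libraries, H2bc4 and H3f3a were below control, while H4c9 was lower under each scaling. None of these 3 genes was called with the leukocyte marker level as a covariate or in libraries thinned to the smallest, where 6.62% and 15.2% of all tested genes were called. In bulk libraries, fewer cells of a type and less RNA per cell cannot be told apart.

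**Figure D1:**
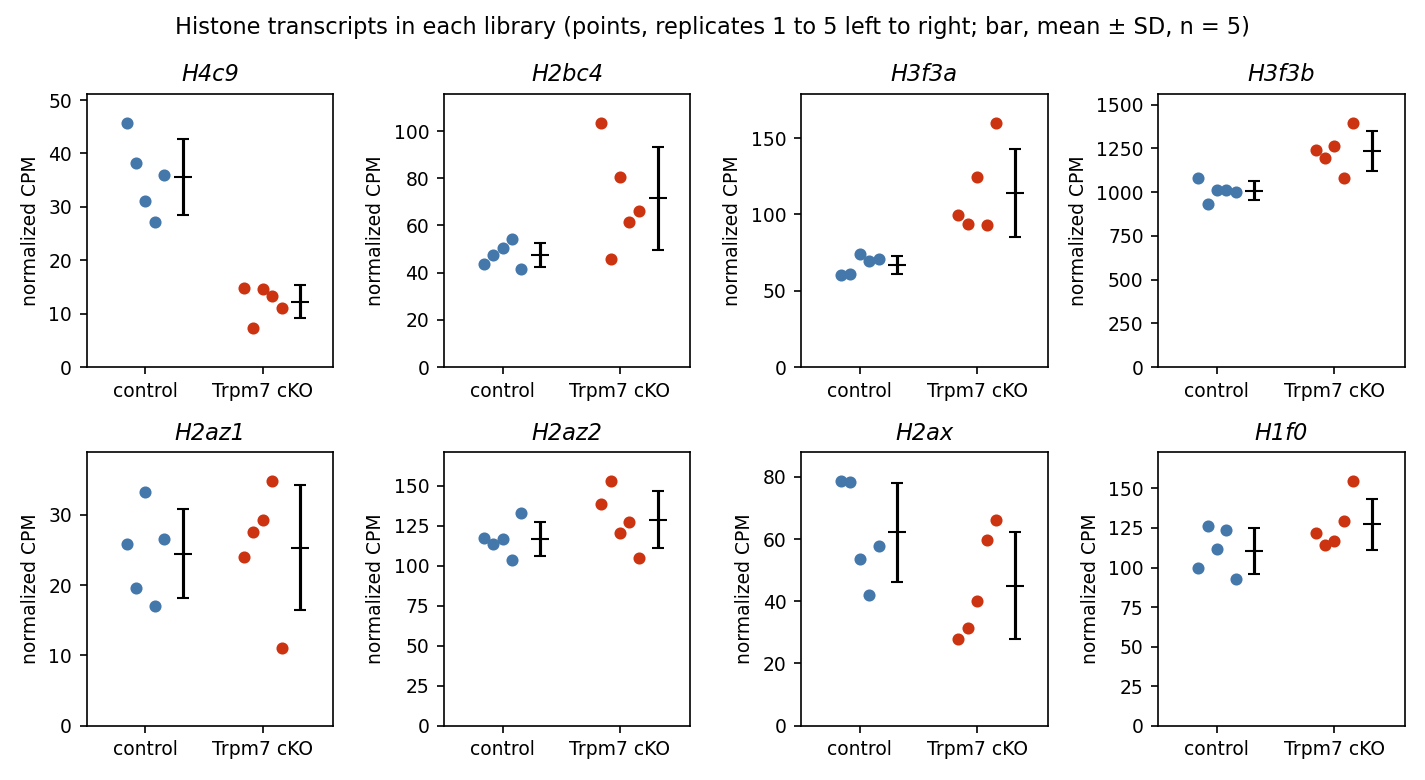
Normalized CPM of the 8 tested histone genes in each library, with control in blue and Trpm7 cKO in red, replicates 1 to 5 from left to right, and the mean ± SD (n = 5) as a bar. H4c9 ranged over 27.1 to 45.7 in control and 7.36 to 14.8 in Trpm7 cKO libraries, and H3f3a over 60.7 to 74.0 and 92.8 to 160. The groups overlapped for the other 6 genes.

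Control libraries held 914361 to 1097709 counts and Trpm7 cKO libraries 205986 to 581121, so that a floor of 3 counts stood at 2.73 CPM in the largest library and 14.6 CPM in the smallest, before normalization. The totals of the genotypes did not overlap, and depth and genotype cannot be told apart. Trpm7 itself was at 76.9 ± 9.97 CPM in control and 71.4 ± 22.0 CPM in Trpm7 cKO libraries (SD, n = 5 each; edgeR, log2 fold change −0.09, standard error (SE) 0.20, adjusted p = 0.723). The floxed part of the gene is not given in the text used here, and a count at the 3′ end that lies outside it cannot check the deletion. The paper reported the deletion by other means, namely Trpm7 mRNA in freshly isolated MuSCs, PCR, and TRPM7 staining of MuSCs on myofibers. Pax7 was detected in each library, at 166 to 259 CPM in control and 265 to 557 CPM in Trpm7 cKO libraries, and Myod1 at 551 to 827 CPM and 132 to 235 CPM. All 27 tested of the 37 leukocyte markers were higher in Trpm7 cKO libraries, none of the 37 was without a count in the series, and their summed level was 506 to 851 CPM in control and 1757 to 7655 CPM in Trpm7 cKO libraries. All 5 tested of 12 endothelial markers and all 3 tested of 10 neutrophil and erythroid markers were also higher, at sums of 12.9 to 93.8 against 188 to 933 CPM and of 1.99 to 181 against 172 to 3296 CPM. Of 8 tested among 12 fibroadipogenic progenitor markers 6 were higher and 1 was lower, with sums of 2856 to 4734 CPM in control and 3504 to 6340 CPM in Trpm7 cKO libraries. Of 15 tested among 17 MuSC markers 8 were higher and 2 were lower, with sums of 4176 to 4848 CPM and 3388 to 6273 CPM. The part of these other cells and of depth in the histone results was not tested.

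The 3′ ends of the clustered genes are shown first, since the protocol primes on poly(A) and the stem-loop form has none. The motif GGNNCTTTTNAGNGCC was searched on the sense strand of one annotated transcript per gene (GENCODE M21, GRCm38), and 23 of the 36 clustered genes held it. For these genes the whole length of the transcript was searched. Of all 55450 annotated genes, 35 (0.063%) held it in the last 500 bases of any of their transcripts. The stretches searched differ, so these counts cannot be compared directly. Among the 23 genes, 14 had the core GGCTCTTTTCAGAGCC, 5 had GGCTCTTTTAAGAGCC, 2 had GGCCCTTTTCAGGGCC and 2, H4c9 and H4c14, had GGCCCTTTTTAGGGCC. The windows below hold the core in capitals with 6 bases on each side, for the H4 gene that fell, for H4c14 with the same core, for H2bc6 and H2ac6, the clustered genes with the most bases after the core, and for H2ax, the replacement variant that has a stem-loop. They lie at chr13:22040960-22040987 (H4c9, minus strand), chr3:96262933-96262960 (H4c14, minus), chr13:23585525-23585552 (H2bc6, minus), chr13:23683471-23683498 (H2ac6, minus) and chr9:44335234-44335261 (H2ax, plus).
H4c9: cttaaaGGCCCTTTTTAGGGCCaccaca
H4c14: cctaacGGCCCTTTTTAGGGCCaaccac
H2bc6: accaaaGGCTCTTTTCAGAGCCacccaa
H2ac6: cccaaaGGCTCTTTTCAGAGCCcccact
H2ax: cacaaaGGCCCTTTTAAGGGCCaccacc

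The annotated H4c9 transcript goes on for 330 bases after its stem-loop window's core and has a poly(A) hexamer (AATAAA or ATTAAA) 21 bases from its end. H4c14 shares the core and had 1 count in all libraries together. The transcript of H2ax goes on for 822 bases after the core and ends near a hexamer, while those of H3f3a, H3f3b, H2az1, H2az2 and H1f0 hold no such motif. The transcript of H2bc4, 1156 bases in 2 exons, holds no stem-loop motif and no hexamer in its last 50 bases. A match or its absence describes these letters in the annotated transcript only.

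The clustered genes held few counts. The 36 genes had 779 counts over the 10 libraries, of which H2bc4 had 379 and H4c9 had 196, together 73.8%. Of the 36, 27 had 5 counts or fewer in all. By histone type, 12 H2B genes held 459 counts, 7 H4 genes 229, 9 H3 genes 61 and 8 H2A genes 30. The 9 genes whose annotated transcript ends within 100 bases of the stem-loop core held 24 counts, at most 6 in a gene. The 14 genes with a longer stretch after the core held 308 counts, at most 196 in a gene (H4c9). The medians per gene were 2 and 3.5 counts. Words of 31 bases shared with other genes covered 63.2 to 94.2% of the last 500 bases in the 9 genes. In the 14 genes they covered 0 to 99.8%. The part of distance and of sharing in these counts was not tested. Each library had a count for between 12 and 22 of the 44 members, and the lowest number was in the smallest library, Trpm7 cKO replicate 5.

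**Figure D2:**
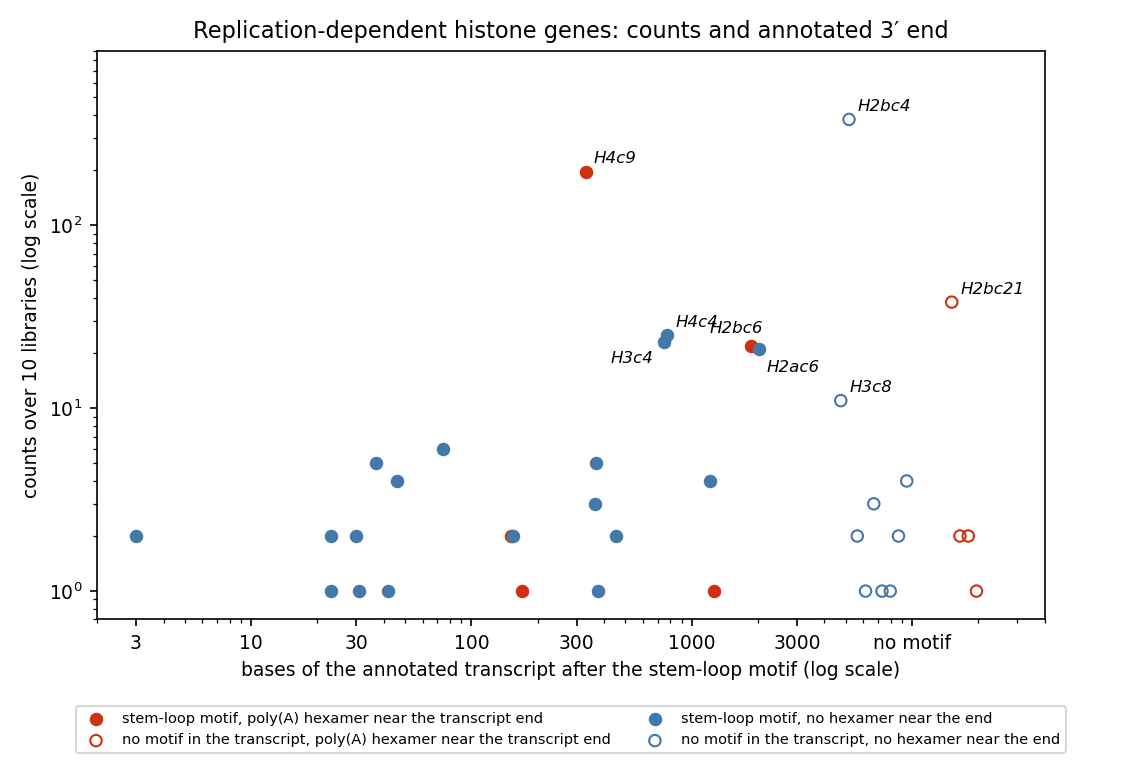
Counts over the 10 libraries (log scale) of the 36 replication-dependent histone genes against the bases of the annotated transcript after the stem-loop motif (log scale), with genes without the motif as open circles at the right, spread sideways only to separate them, and genes with a poly(A) hexamer near the transcript end in red. Genes within 100 bases of the motif have at most 6 counts (median 2, against 3.5 further away), and H2bc4 (379) and H4c9 (196) stand above the rest.

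H4c9 (annotated as Hist1h4i, chr13:22040636-22041362, minus strand, 1 exon) encodes an H4 protein. It was read 46, 37, 29, 27 and 31 times in the control libraries, in the order of their replicate numbers, and 8, 4, 4, 8 and 2 times in the Trpm7 cKO libraries. In normalized CPM these were 45.7, 38.2, 31.1, 27.1 and 35.9 in control and 14.8, 7.36, 14.6, 13.3 and 11.0 in Trpm7 cKO libraries. Every Trpm7 cKO library was below every control library, and control replicate 1 was the highest of all. The log2 fold change was −1.54 (SE 0.28, quasi-likelihood test of edgeR, Benjamini-Hochberg adjustment over 7753 genes, adjusted p = 1.39e-04). Of all tested genes, 24.1% were lower at an adjusted p below 0.05, 3.53% were lower with a log2 fold change beyond −1.5 as well, and 17.9% were lower without overlap of the groups. The fall passed the fold threshold by a narrow margin, and ran from −1.65 to −1.36 when 1 library was left out, with the values without Trpm7 cKO replicate 2 (−1.36) and without control replicate 1 (−1.43) short of the fold threshold. It was also short of it with limma-voom and with total counts alone (−1.46 each). With the leukocyte marker level as a covariate, the adjusted p was 0.0629 at a log2 fold change of −2.73, and in libraries thinned to the smallest it was 0.0538 at −2.07. Of the last 500 bases of H4c9, 28.2% lie in 31-base words that also occur in transcripts of other genes.

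H2bc4 (annotated as Hist1h2bc, chr13:23684199-23692908, plus strand) encodes an H2B protein. It was read 44, 46, 47, 54 and 36 times in the control libraries, in the order of their replicate numbers, and 56, 25, 22, 37 and 12 times in the Trpm7 cKO libraries. In normalized CPM these were 43.8, 47.5, 50.4, 54.2 and 41.7 in control and 103, 46.0, 80.4, 61.3 and 66.2 in Trpm7 cKO libraries. Trpm7 cKO replicate 2 lay within the control range and the other 4 above it, with replicate 1 the highest. The means were 47.5 ± 5.03 and 71.5 ± 21.7 CPM (SD, n = 5 each), a log2 fold change of 0.58 (SE 0.21, edgeR, adjusted p = 0.0246), where 24.6% of all tested genes were higher at this threshold and 8.49% were higher beyond a log2 fold change of 1.5. Without Trpm7 cKO replicate 1 the log2 fold change was 0.36 (edgeR, adjusted p = 0.151), and the call was also lost without Trpm7 cKO replicate 3 (adjusted p = 0.0515), control replicate 1 (0.0553) or control replicate 5 (0.0525). The log2 fold change was 0.25 with the leukocyte covariate (edgeR, adjusted p = 0.868), 0.49 in thinned libraries (edgeR, adjusted p = 0.691), 0.44 with scaling on MuSC markers (edgeR, adjusted p = 0.155) and 0.38 without a filter on low counts (edgeR, adjusted p = 0.193), and none of these was called. With equal scaling of all libraries, which were made from the same number of sorted cells, the log2 fold change turned to −0.58 (edgeR, adjusted p = 0.162), where 66.6% of all tested genes were lower, 4.9% were higher and 71.5% were called in all. Of the last 500 bases of H2bc4, 11.4% lie in 31-base words that also occur in transcripts of other genes.

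Since both genes were read in the same libraries, their ratio does not depend on how libraries are scaled. H4c9 made up 51.1, 44.6, 38.2, 33.3 and 46.3% of the counts of H4c9 plus H2bc4 in control replicates 1 to 5, and 12.5, 13.8, 15.4, 17.8 and 14.3% in Trpm7 cKO replicates 1 to 5. The shares did not overlap, at 42.7% ± 6.99 (SD, n = 5) and 14.7% ± 1.99 (SD, n = 5). Of the 2 clustered members tested, 1 fell and 1 rose, with a median log2 fold change of −0.48 over the 2 against −0.01 over all genes.

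The 34 clustered genes that were not tested had 204 counts together. The 5 with the most counts are named here after their values were seen: H2bc21 (38 counts), H4c4 (25), H3c4 (23), H2bc6 (22) and H2ac6 (21). Their summed level was 12.0 ± 2.42 CPM in control and 39.0 ± 20.4 CPM in Trpm7 cKO libraries (SD, n = 5 each), and the groups overlapped. Library by library this came from 12, 11, 15, 10 and 9 control counts and from 21, 15, 19, 9 and 8 Trpm7 cKO counts. H2ac6, an H2A gene (chr13:23681467-23683948, minus strand) that neighbours H2bc4 head to head, had 0, 0, 2, 0 and 1 counts in control and 5, 6, 6, 1 and 0 counts in Trpm7 cKO libraries. Its counts were high in Trpm7 cKO replicates 1 to 3 and within the control range in replicates 4 and 5. In a fit without a filter on low counts, H2ac6 was 1 of 2 clustered genes of 36 that passed the threshold, with a log2 fold change of 3.25 (SE 0.78, edgeR, adjusted p = 2.76e-04) that depends on the prior count, and the other was H4c9, at −1.73 (SE 0.32, adjusted p = 7.94e-07). Over all 21914 genes of that fit, 25.2% were called, 13.1% higher and 12% lower. That fit also moved the median of all genes to 0.17. The remaining 29 genes had 75 counts, with 9 to 12 counts per control library and 0 to 6 per Trpm7 cKO library, and sums of 11.3 ± 1.17 and 9.73 ± 7.95 CPM (SD, n = 5 each). At these counts a difference was not detectable gene by gene.

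Summed over all 36 genes, the clustered level was 106 ± 4.52 CPM in control and 132 ± 43.2 CPM in Trpm7 cKO libraries (SD, n = 5 each). The values were 112, 108, 107, 103 and 101 CPM in control replicates 1 to 5 and 168, 88.3, 186, 97.8 and 121 CPM in Trpm7 cKO replicates 1 to 5. Trpm7 cKO replicates 2 and 4 lay below all control libraries and replicates 1, 3 and 5 above them. The H4 genes summed to 39.7 ± 7.22 CPM in control and 19.5 ± 3.57 CPM in Trpm7 cKO libraries (SD, n = 5 each) without overlap, and H4c9 held 196 of their 229 counts. The H2B genes summed to 57.4 ± 4.75 and 90.1 ± 28.3 CPM, the H3 genes to 6.81 ± 4.33 and 14.1 ± 7.54 CPM, and the H2A genes to 2.57 ± 1.63 and 8.77 ± 8.74 CPM (SD, n = 5 each), all with overlap. Of the 36 clustered genes, 28 shared 31-base words with other genes in their last 500 bases. In 24 of them such words covered more than 50% of these bases, so that the split of counts among the low genes is uncertain. A sum over types is less affected where the sharing genes belong to the same type. That does not hold for H4c9 and H2bc4, which carry most of the H4 and H2B counts. They share words with 124 and 473 other genes, and these include genes outside the histone families.

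The replacement variants carried far more counts, 10126 in 6 genes, and their 3′ ends shared no 31-base word with another gene. The first were the genes of H3.3, the H3 variant that replaces H3 outside replication. H3f3a (chr1:180800832-180813943, minus strand) was read 61, 59, 69, 69 and 61 times in the control libraries, in the order of their replicate numbers, and 54, 51, 34, 56 and 29 times in the Trpm7 cKO libraries. In normalized CPM these were 60.7, 60.9, 74.0, 69.3 and 70.6 in control and 99.8, 93.9, 124, 92.8 and 160 in Trpm7 cKO libraries. Every Trpm7 cKO library was above every control library, with replicate 5, the smallest library, the highest. The log2 fold change was 0.70 (SE 0.17, edgeR, adjusted p = 0.00206), and 16.6% of all tested genes were higher without overlap. It stayed between 0.59 and 0.76 without any 1 library, with an adjusted p below 0.05 each time. With the leukocyte covariate the log2 fold change was 0.37 (edgeR, adjusted p = 0.7104), in thinned libraries it was 0.76 (edgeR, adjusted p = 0.261), and with equal scaling of all libraries it turned to −0.51 (edgeR, adjusted p = 0.213).

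H3f3b (chr11:116021912-116027962, minus strand), which encodes the same H3.3 protein, had 7383 of the 7926 counts of the H3.3 genes. It was read 1088, 903, 944, 1010 and 866 times in the control libraries, in the order of their replicate numbers, and 673, 649, 346, 651 and 253 times in the Trpm7 cKO libraries. The normalized CPM values were 1082, 932, 1012, 1014 and 1003 in control and 1244, 1194, 1264, 1079 and 1396 in Trpm7 cKO libraries. Only Trpm7 cKO replicate 4 fell within the control range, just below control replicate 1. The means were 1009 ± 53.0 and 1235 ± 115 CPM (SD, n = 5 each), a log2 fold change of 0.29 (SE 0.13) that did not pass the threshold in edgeR (adjusted p = 0.0642) and passed it in DESeq2 (adjusted p = 0.00736) and limma-voom (adjusted p = 0.0385). Without Trpm7 cKO replicate 4 it was 0.33 (edgeR, adjusted p = 0.0241). With equal scaling of all libraries it turned to −0.90 (edgeR, adjusted p = 0.0234). Within the pair of H3.3 genes, H3f3b made up 93.2 to 94.7% of the counts in control and 89.7 to 92.7% in Trpm7 cKO libraries, means of 93.8% ± 0.580 and 91.6% ± 1.25 (SD, n = 5 each) without overlap.

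The H2A variants did not pass the threshold. H2ax (annotated as H2afx, chr9:44334694-44336077, plus strand) encodes H2A.X, the variant phosphorylated around DNA breaks. It was read 79, 76, 50, 42 and 50 times in the control libraries, in the order of their replicate numbers, and 15, 17, 11, 36 and 12 times in the Trpm7 cKO libraries. The normalized CPM values were 78.6, 78.5, 53.6, 42.2 and 57.9 in control and 27.7, 31.3, 40.2, 59.6 and 66.2 in Trpm7 cKO libraries. Trpm7 cKO replicates 1 to 3 lay below all control libraries, and replicates 4 and 5 lay within the control range. Those 2 libraries have a number in common in their labels whose meaning is not stated. The means were 62.1 ± 16.02 and 45.0 ± 17.1 CPM (SD, n = 5 each), with a log2 fold change of −0.53 (SE 0.25, edgeR, adjusted p = 0.0842). Without Trpm7 cKO replicate 4 the log2 fold change was −0.76 (adjusted p = 0.0240), without replicate 5 it was −0.63 (adjusted p = 0.0478), and without control replicate 4 it was −0.65 (adjusted p = 0.0416), all in edgeR. In the fit without a filter on low counts it was −0.73 (edgeR, adjusted p = 0.00695). In thinned libraries it was 0.04 (SE 0.66, edgeR, adjusted p = 0.980), with the leukocyte covariate −2.19 (SE 0.66, edgeR, adjusted p = 0.0493), and with equal scaling of all libraries −1.70 (edgeR, adjusted p = 7.59e-05).

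H2A.Z, which marks promoters and enhancers, comes from H2az1 (chr3:137864487-137866922, plus strand) and H2az2 (chr11:6427229-6444443, minus strand). H2az2 held 842 counts and H2az1 175. H2az1 was at 24.5 ± 6.36 CPM in control and 25.3 ± 8.89 CPM in Trpm7 cKO libraries (SD, n = 5 each), with a log2 fold change of 0.15, its 95% interval running from −0.37 to 0.68 (edgeR, adjusted p = 0.669). Trpm7 cKO replicate 5 was the lowest, at 11.0 CPM from 2 counts, below the floor of 3 counts. Replicate 4 was the highest, at 34.8 CPM from 21 counts. H2az2 was at 117 ± 10.7 and 129 ± 18.1 CPM (SD, n = 5 each), with a log2 fold change of 0.17, its 95% interval running from −0.11 to 0.45 (edgeR, adjusted p = 0.349). H2az2 made up 82.8% ± 3.19 of the H2A.Z counts in control and 83.9% ± 4.63 in Trpm7 cKO libraries (SD, n = 5 each), with overlap.

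H1f0 (chr15:79028450-79030504, plus strand) encodes H1.0, a linker histone that builds up in cells that have left the cycle. It was at 92.6 to 126 CPM in control and 114 to 155 CPM in Trpm7 cKO libraries, means of 111 ± 14.6 and 127 ± 16.2 CPM (SD, n = 5 each). The log2 fold change was 0.18, its 95% interval running from −0.11 to 0.47 (edgeR, adjusted p = 0.336). Trpm7 cKO replicates 4 and 5, at 129 and 155 CPM, lay above all control libraries, and the other 3 lay within the control range.

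**Figure D3:**
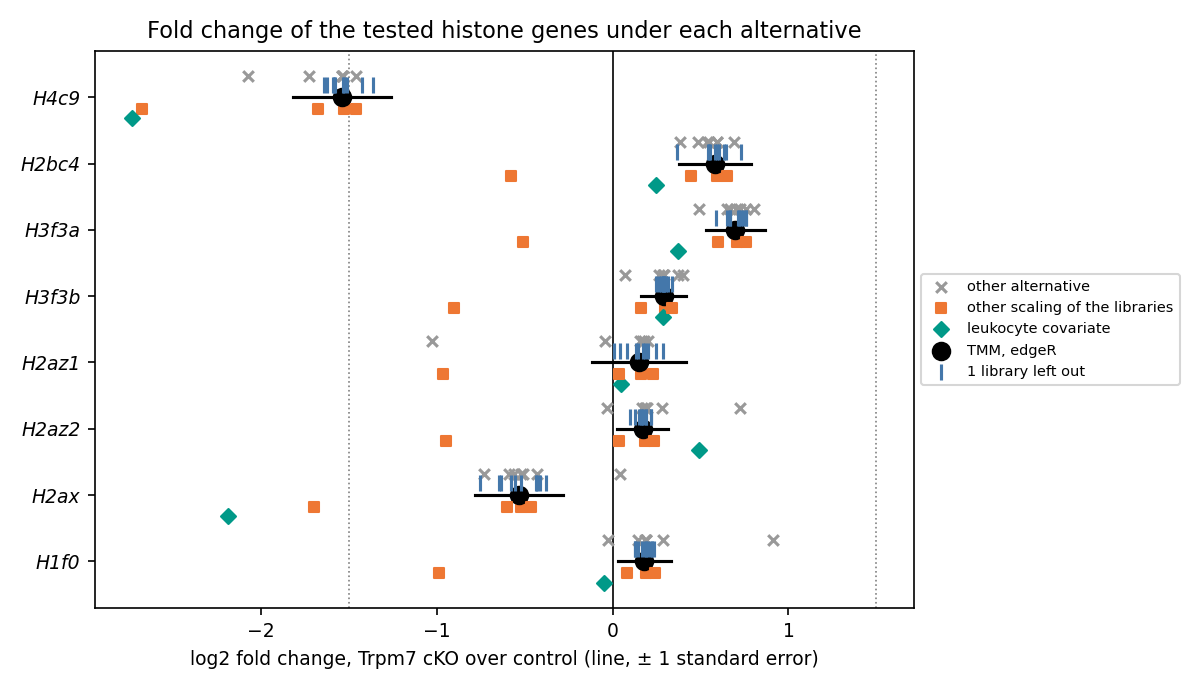
Log2 fold change (Trpm7 cKO over control) of the 8 tested histone genes, in edgeR with TMM scaling (black, with a line of ± 1 SE), with other scalings (orange), with 1 library left out (blue), with the leukocyte covariate (green) and under other alternatives (grey crosses), where dotted lines mark log2 fold changes of 1.5 in either direction. H4c9 lies between −2.73 and −1.36 throughout, while the leftmost orange square of each row, equal scaling of all libraries, lies below 0 for all 8 genes.

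Over the 6 variants, 1 was called, the median log2 fold change was 0.18 against −0.01 over all tested genes, and 48.7% of all tested genes were called in either direction. The summed level of the variants was 1464, 1331, 1402, 1369 and 1383 CPM in control replicates 1 to 5 and 1656, 1614, 1695, 1523 and 1893 CPM in Trpm7 cKO replicates 1 to 5. All Trpm7 cKO sums were above all control sums, with means of 1390 ± 48.8 and 1676 ± 137 CPM (SD, n = 5 each). Without H3f3b the sums were 381 ± 16.1 and 441 ± 33.5 CPM (SD, n = 5 each), also without overlap. On equal scaling of all libraries, where the median of all genes was −1.15, the log2 ratio of the variant sums turned from 0.27 to −0.92.

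Histone genes that the symbol pattern leaves out were read beside the members. Of 17 such genes, 4 were tested. The linker histone H1f2 had a log2 fold change of 0.36 (SE 0.24, edgeR, adjusted p = 0.235). H1f2 (annotated as Hist1h1c, chr13:23738808-23740367) lies among the clustered genes and its transcript holds the stem-loop motif, but it is not counted with the clustered members. The H2A gene H2aj was at 0.63 (SE 0.37, edgeR, adjusted p = 0.166). Macroh2a1, a variant with a large extra domain linked to silent chromatin, was at 0.11 (SE 0.15, edgeR, adjusted p = 0.597). Cenpa, the H3 variant of centromeres, fell from 472 ± 95.8 to 168 ± 44.2 CPM (SD, n = 5 each), a log2 fold change of −1.45 (SE 0.18, edgeR, adjusted p = 2.40e-06). Its control libraries lay between 363 and 547 CPM and its Trpm7 cKO libraries between 116 and 234 CPM, without overlap.

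Genes that make, process and deposit histones were read against the 24.1% of all tested genes that were lower, the 24.6% that were higher and the 17.9% that were lower without overlap. Of 16 genes of histone mRNA transcription and 3′ processing, 11 were tested, 6 were lower, 0 were higher and 5 did not pass the threshold, with a median log2 fold change of −0.67 and all 6 without overlap. Npat, the coactivator of histone gene transcription, had a log2 fold change of 0.01 (adjusted p = 0.998), and Casp8ap2, a component of the bodies in which histone mRNA is made, 0.08 (adjusted p = 0.799), both in edgeR. Slbp, the protein that binds the stem-loop, was at 43.4 ± 11.0 CPM in control and 28.8 ± 8.19 CPM in Trpm7 cKO libraries (SD, n = 5 each) with overlap, and its log2 fold change of −0.61 (SE 0.25) missed the threshold (edgeR, adjusted p = 0.0509). Lsm10, part of the U7 particle that guides the cut after the stem-loop, had 33.6 to 51.5 CPM in control and 0 to 24.0 CPM in Trpm7 cKO libraries, and its log2 fold change was −1.51 (SE 0.34, edgeR, adjusted p = 9.58e-04). The genes that follow are named after their values were seen. The others called lower were Cpsf2, Cstf2, Ncbp1, Ncbp2 and Srrt. Zfp473, Lsm11, Sympk and Upf1 of the same list, too low to be tested, had higher means in Trpm7 cKO libraries. Hinfp, also too low, had a lower mean. Zfp473 went from 0.207 to 9.41 CPM, from 0 to 1 counts per control library and 1 to 6 per Trpm7 cKO library. Its highest control library (1.03 CPM) and its lowest Trpm7 cKO library (1.85 CPM) each held 1 count, so that library size alone separated these 2. Lsm11 went from 4.71 to 11.2 CPM, Sympk from 6.45 to 14.5, Upf1 from 7.36 to 8.81 and Hinfp from 9.82 to 6.66, all with overlap.

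Of 17 replication-coupled histone chaperones, 15 were tested, 9 were lower, against 24.1% of all tested genes, 0 were higher and 6 did not pass, with a median log2 fold change of −0.56. Asf1b, which hands new H3 and H4 to the assembly factors in dividing cells, fell without overlap, with 76.4 to 149 CPM in control, 16.6 to 49.7 CPM in Trpm7 cKO libraries and a log2 fold change of −1.88 (SE 0.27, edgeR, adjusted p = 1.47e-05). Its paralogue Asf1a fell as well, by 0.86 on the log2 scale (SE 0.24, edgeR, adjusted p = 0.00548). Nasp, which keeps a soluble store of H3 and H4, fell from 328 ± 25.4 to 191 ± 40.2 CPM (SD, n = 5 each), a log2 fold change of −0.79 (SE 0.16, edgeR, adjusted p = 3.37e-04). Of the subunits of the chromatin assembly factor CAF-1, Chaf1b had a log2 fold change of −0.33 (SE 0.34, edgeR, adjusted p = 0.451) and Chaf1a, with 7 counts in all, was not tested.

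Of 20 genes of variant deposition and exchange, Cenpa included, 18 were tested, 6 were lower, 1 was higher and 11 did not pass, with a median log2 fold change of −0.30, where 48.7% of all tested genes were called in either direction. Hira, the H3.3 chaperone at active genes, had a log2 fold change of −0.21 (adjusted p = 0.554), and Daxx and Atrx, which place H3.3 at heterochromatin, −0.29 (adjusted p = 0.292) and 0.28 (adjusted p = 0.0720), all in edgeR. Atrx was at 239 to 265 CPM in control and 280 to 353 CPM in Trpm7 cKO libraries without overlap. The 1 gene that rose, named after its values were seen, was Ubn1, a partner of Hira, from 43.1 ± 8.98 to 108 ± 39.7 CPM (SD, n = 5 each), a log2 fold change of 1.24 (SE 0.21, edgeR, adjusted p = 8.16e-05). Hjurp, the chaperone of Cenpa, had a log2 fold change of −0.27 (SE 0.19, edgeR, adjusted p = 0.264) beside the −1.45 of Cenpa. Anp32e, which takes H2A.Z off nucleosomes, fell from 426 ± 30.2 to 184 ± 29.7 CPM (SD, n = 5 each), a log2 fold change of −1.20 (SE 0.14, edgeR, adjusted p = 1.30e-06).

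Of 43 S phase genes, which share Nasp, Slbp, Casp8ap2, Chaf1b and Mcm2 with these lists, 37 were tested, 19 were lower, against 24.1% of all tested genes, 0 were higher and 18 did not pass, with a median log2 fold change of −0.70. Their summed level was 3377 to 4177 CPM in control and 1336 to 2447 CPM in Trpm7 cKO libraries. It was highest among the Trpm7 cKO libraries in replicate 4, where H2ax was at 59.6 CPM, while replicate 5, with H2ax at 66.2 CPM, was among the lowest at 1429 CPM. The part of the S phase level in the fall of H4c9 was not tested. The medians of the S phase list and the 3 lists of histone supply were below 0 under each scaling, and with the leukocyte covariate none of the 3 supply lists had a called gene and the S phase list had 1, where 1.7% of all tested genes were lower and 4.91% higher. In thinned libraries, the genes called lower were 1 of the processing list, 1 of the chaperones, 2 of the deposition list and 6 of the S phase list, where 5.86% of all tested genes were lower and 9.36% higher.

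**Figure D4:**
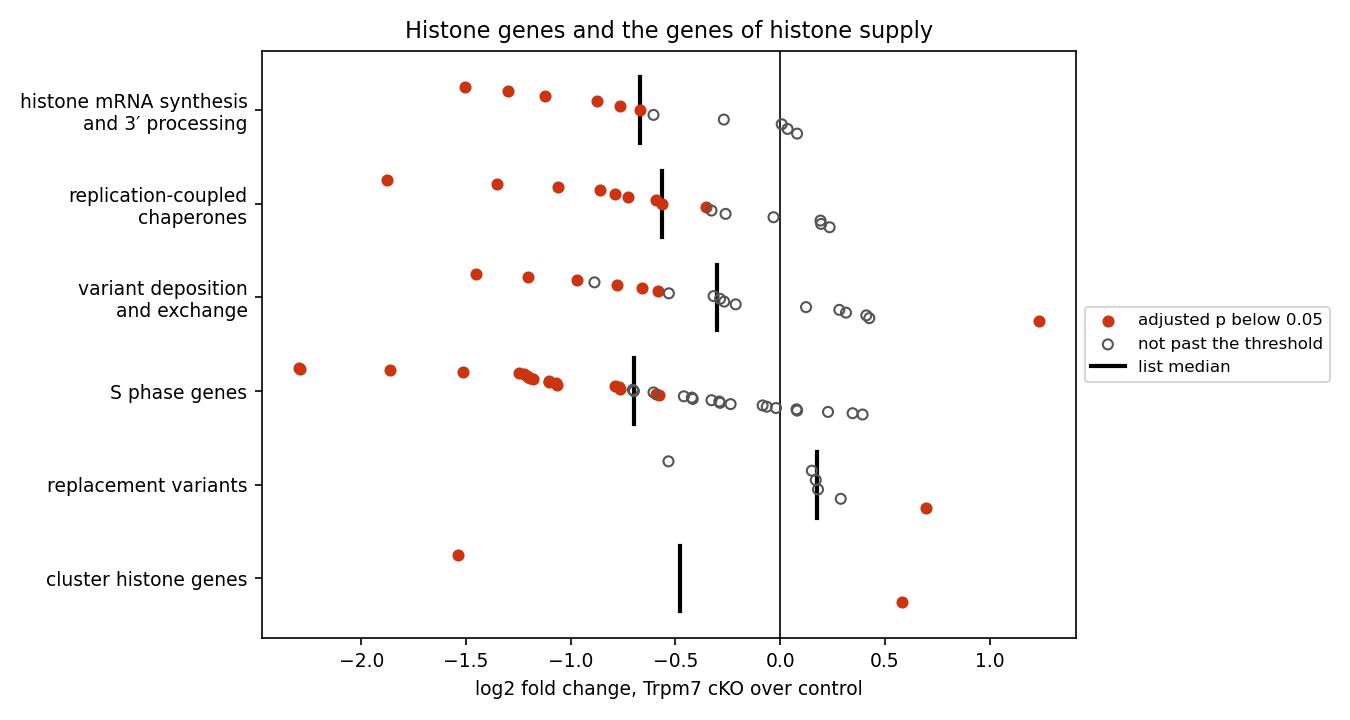
Log2 fold change (Trpm7 cKO over control) of each tested gene in the histone supply lists, the S phase list, the replacement variants and the clustered histone genes, with genes at an adjusted p below 0.05 filled and the list median as a vertical bar. The medians were −0.67, −0.56, −0.30 and −0.70 for the 4 lists, and 0.18 and −0.48 for the 6 variants and the 2 clustered members tested.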

How the data were processed

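RNA-seq of 5 control and 5 Trpm7 cKO libraries was analysed from the deposited gene table. Per the labels and the study's methods, the authors extracted UMIs with UMI-tools 1.1.4, trimmed with Trim Galore 0.6.10, aligned to GRCm38 with HISAT2 2.2.1, assigned reads with featureCounts 2.0.6 and removed UMI duplicates. The deposited values are whole-number counts without normalization. The annotation and strand setting of the counting are not given in the sources used here.

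Of 24608 symbols (12 listed again, the larger total kept), 7753 passed filterByExpr (minimum count 10, minimum total 15). edgeR 4.0.16 in R 4.3.3 gave TMM factors, a robust quasi-likelihood fit with genotype as the only term, and Benjamini-Hochberg adjusted p-values. A gene was called below an adjusted p of 0.05, and separately also beyond a log2 fold change of 1.5. Normalized CPM takes the counts on tested genes, after TMM, as the library total. Floors cover counting error only. The 95% intervals, from the SE of the edgeR fit, and p-values measure the spread between these libraries, since the labels do not say that each came from its own animal. DESeq2 1.42.0 and limma-voom (limma 3.58.1) were alternatives. Counts were thinned in 1 random draw, and its spread over draws was not measured. The summed leukocyte marker level did not overlap between the genotypes, so the fit with that covariate separates it from genotype poorly. The test was tested on simulated data.

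Clustered genes and variants were separated by gene class, because the table mixes older and newer histone symbols. All 44 members were matched to GENCODE M21 through RefSeq synonyms for sequence. Named were all tested members, 14 genes of histone supply and those of their lists past both thresholds. The members, lists and alternatives were chosen with earlier results of these data known.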

Additional observations from a re-analysis of the deposited data

How the results depend on the processing

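Low counts of the clustered genes, the depth gap and the leukocyte marker level limit these results. Genes called numbered 3774 (932 with the fold threshold), and 513 (498) with the leukocyte covariate, 2448 (473) at a minimum count of 30, 1180 in thinned libraries, 2664 with the fold threshold on equal scaling (counts per sorted cell), and 2436 with the fold threshold without a filter. Without any 1 library they ran from 3394 to 3811 (860 to 1074). Clustered genes called (2) became 1 on equal scaling, at a minimum count of 30 and on MuSC marker scaling, 0 with the leukocyte covariate and in thinned libraries, and 1 to 2 without any 1 library. Variants called (1, higher) became 2 (all higher) with DESeq2, limma-voom, total counts and a minimum count of 30. They became 2 (1 higher, 1 lower) without a filter, and 5 (all lower) on equal scaling, where 66.6% of all tested genes were lower. With the leukocyte covariate the 1 variant called was H2ax, lower, where 1.7% of all tested genes were lower. Variants called were 0 in thinned libraries, and 1 to 3 without any 1 library. The clustered median (−0.48) became −1.63 on equal scaling, −1.24 with the leukocyte covariate, 0.69 at a minimum count of 30 (1 gene left), −0.97 without a filter (36 genes), −0.79 in thinned libraries, and −0.64 to −0.32 without any 1 library. The variant median (0.18) became −0.96 on equal scaling, 0.29 at a minimum count of 30, −0.027 without a filter, 0.060 on MuSC marker scaling, 0.55 in thinned libraries, and 0.17 to 0.23 without any 1 library. The log2 ratio of clustered sums (0.31) was −0.91 on equal scaling and 0.16 to 0.43 without any 1 library; that of variant sums (0.27) was −0.92, 0.15 on MuSC marker scaling and 0.22 to 0.30. On equal scaling H1f0 was at −0.99, H2az1 −0.97, H2az2 −0.95, H2bc4 −0.58, H3f3a −0.51 and H3f3b −0.90; without a filter H1f0 was at −0.024, H2az1 −0.042 and H2az2 −0.030; H1f0 was at −0.049 with the leukocyte covariate, and thinned H2ax was at 0.043 and H2az1 at −1.03. The median of all genes was −1.15 on equal scaling, −0.13 on MuSC marker scaling and 0.17 without a filter; the cause of the other changes was not tested. RLE factors, and Trpm7 cKO replicates 4 and 5 summed to 1 sample, changed no call of a member.

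The replicate numbers are shared by both genotypes, and the values showed no pairing by number. Same-numbered libraries correlated between −0.12 and 0.18, and 1 of 5 correlated best with its own number. These correlations cannot show that same-numbered libraries were handled apart. With the replicate block, 3572 genes were called (939 with the fold threshold), H4c9 was at −1.54, H2bc4 at 0.55 and H3f3a at 0.72, and the same number of members was called.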
